A study of Mus musculus with 6 samples.

Results

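The genes described here are 38 nucleolar genes of ribosome biogenesis and RNA polymerase I, measured in kidneys of newborn mice labelled USP10 KO or USP10 WT. They are a list of named genes, found on the array by the accession of each probe and its symbol in a RefSeq gene table, and they stand among 21220 genes tested in all. Of the 38, 37 had a probe well above background on all 6 arrays. The exception was Rrp12, a factor of small subunit export, whose only probe was well above background on KO replicate 2 and WT replicate 3 alone, and which was not tested. Both groups were male by label, were collected about 6 h after birth, and held 3 independent neonates each, with 1 kidney array per neonate. Usp10 encodes a deubiquitinase, an enzyme that removes ubiquitin from other proteins. The strain, the deleted part of the gene and the way the knockout was made are not given in the sources used here.

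Ribosomes are made in the nucleolus, where RNA polymerase I copies the ribosomal DNA into a long precursor. Small nucleolar ribonucleoprotein particles (snoRNPs) modify the precursor, box C/D particles by methylation and box H/ACA particles by turning uridine into pseudouridine. A large assembly called the small subunit processome folds and cleaves it, and separate sets of factors then mature the small and the large subunit. In a growing kidney these genes are expressed in dividing progenitors and in differentiated cells alike, and the transcription factor MYC is a known activator of many of them.

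Values are log2 of the background-subtracted array signal minus the 75th percentile of the same array, so 0 means a signal equal to that percentile, and a difference is the mean of the arrays labelled KO minus the mean of those labelled WT. The error after ± is the standard error of the limma fit over all genes, and adjusted p-values are from limma with Benjamini-Hochberg adjustment over all 21220 genes. Between 64.4% and 73.9% of non-control spots were well above background, and no spot was saturated. The file headers give one scan time for KO replicates 1 and 2 with WT replicates 2 and 3 (scan 1) and another for KO replicate 3 with WT replicate 1 (scan 2).

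The probe of the targeted gene was not lower on the KO arrays, and sex-linked genes went against the male label on some arrays. KO and WT are therefore used here only as the labels give them. The single Usp10 probe read 3.64, 3.37 and 3.56 on the arrays labelled KO and 3.01, 3.12 and 2.95 on those labelled WT, so it was higher on every KO array (0.50 ± 0.16, adjusted p = 0.414). Whether it lies in the deleted part is not known. The Y-linked gene Eif2s3y read -8.11, below the background limit, on WT replicate 2 against 1.82 on WT replicate 3, and a probe of Xist was well above background on WT replicates 1 and 2 alone, at -0.62 and 0.43. On WT replicate 1 Eif2s3y was well above background too, at 1.14, so that array gave signal for both genes. The other Xist probe was well above background on WT replicate 2 alone. Results on the gene list are therefore also given against WT replicate 3 alone. Kidney markers were present: all 6 nephron progenitor, 6 proximal tubule, 5 podocyte, 4 loop and distal tubule and 5 collecting duct markers were well above background on all 6 arrays.

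None of the 37 measured ribosome biogenesis genes passed an adjusted p of 0.05, in either direction. Over all genes 17 passed (0.0801%), a count that was 28 without KO replicate 3 and 0 without any other single array. At an unadjusted p of 0.05 a single one of the 37 was past the threshold, Pes1, on the lower side (4.17% of all genes were past it on that side). The differences were small and mostly below 0. In 29 of 37 genes (78.4%) the KO mean was below the WT mean, against 46.3% of all genes, and the median difference was -0.13, against 0.03 over all genes. With normexp background correction and 75th percentile scaling 25 genes were below 0, where 32.1% of all genes were. With quantile normalisation 34 were below 0 (53.2% of all genes), also after normexp (52.9%). They ran from -0.48 for Polr1b to 0.35 for Utp6, so all 37 lay within 0.5 of 0, as did 85.0% of all genes. Standard errors ran from 0.15 to 0.52, with a median of 0.19. The 95% interval included 0 for 36 of the 37 genes, with Pes1 the exception, and the lowest bound was -1.36 (Fbl). RNA was taken from whole tissue, so fewer cells of a type and less RNA per cell cannot be told apart.

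**Figure D1:**
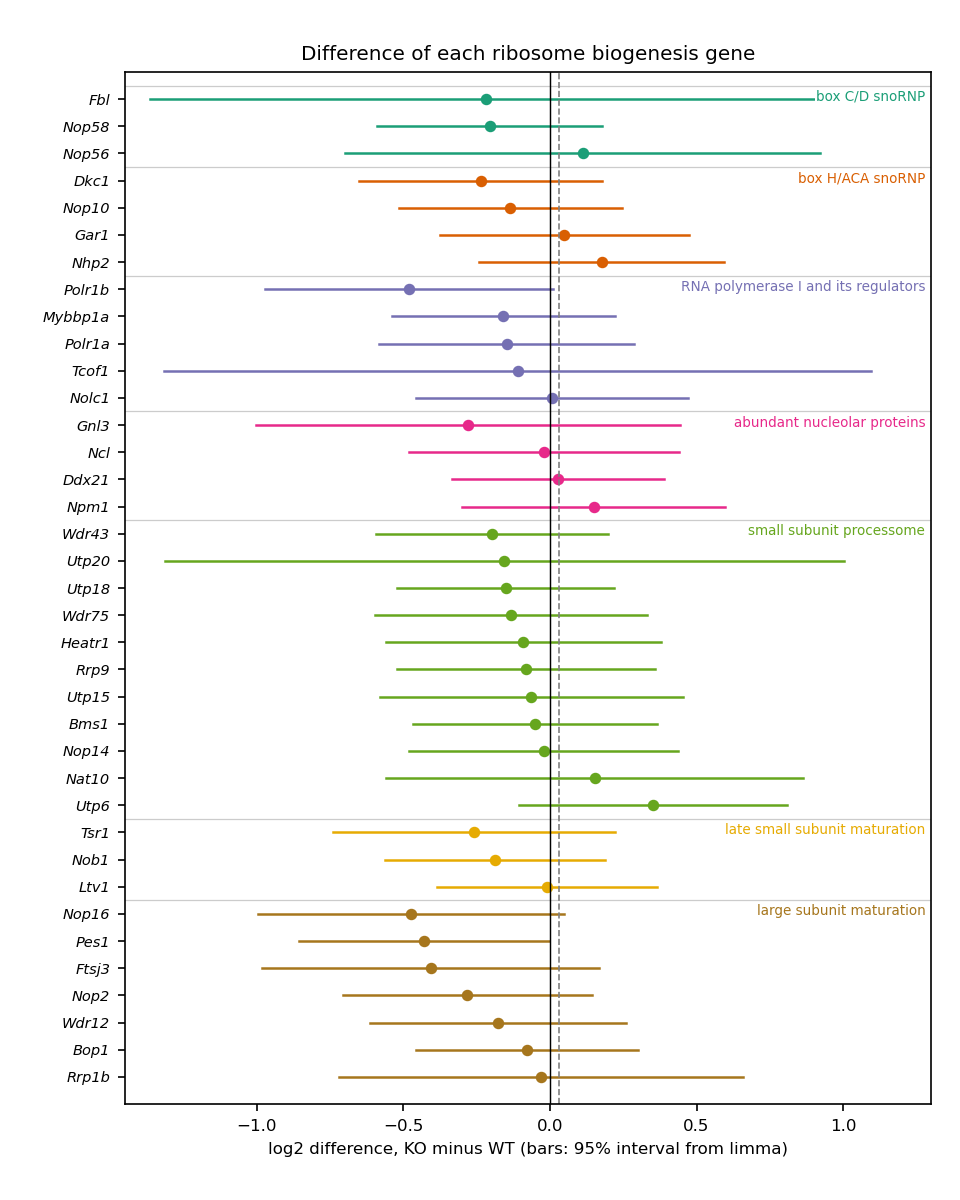
Log2 difference between arrays labelled KO and WT (x axis) for each of the 37 measured genes (y axis), grouped and coloured by role; points are limma estimates from 3 against 3 arrays, bars are 95% intervals, and the dashed line is the median of all genes tested (0.03). Points lie to the left of 0 for 29 of 37 genes, all 7 large subunit factors among them (6 with normexp and the 75th percentile), and 36 of the 37 bars cross 0.

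On the level of single arrays, WT replicate 3 gave the highest value of all 6 arrays for 15 of the 37 genes and WT replicate 1 for 12. The lowest value came from KO replicate 2 for 10 genes and from KO replicate 3 for 8. Such counts were not made over all genes. The median deviation of the 37 genes from their own means was -0.08, -0.01 and -0.06 on the arrays labelled KO and 0.09, 0.01 and 0.10 on those labelled WT. KO replicate 2 and WT replicate 2 thus lay close to each other. Over all genes the median deviation lay between -0.014 and 0.066 on the 6 arrays. Without WT replicate 3 the median difference was -0.04, with 22 genes below 0 (45.2% of all genes). Without WT replicate 1 it was -0.10 with 26 below 0 (48.1%), and without WT replicate 2 it was -0.16 with 28 below 0 (46.0%). Against WT replicate 3 alone the median was -0.19, with 26 genes below 0 (48.6%).

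**Figure D2:**
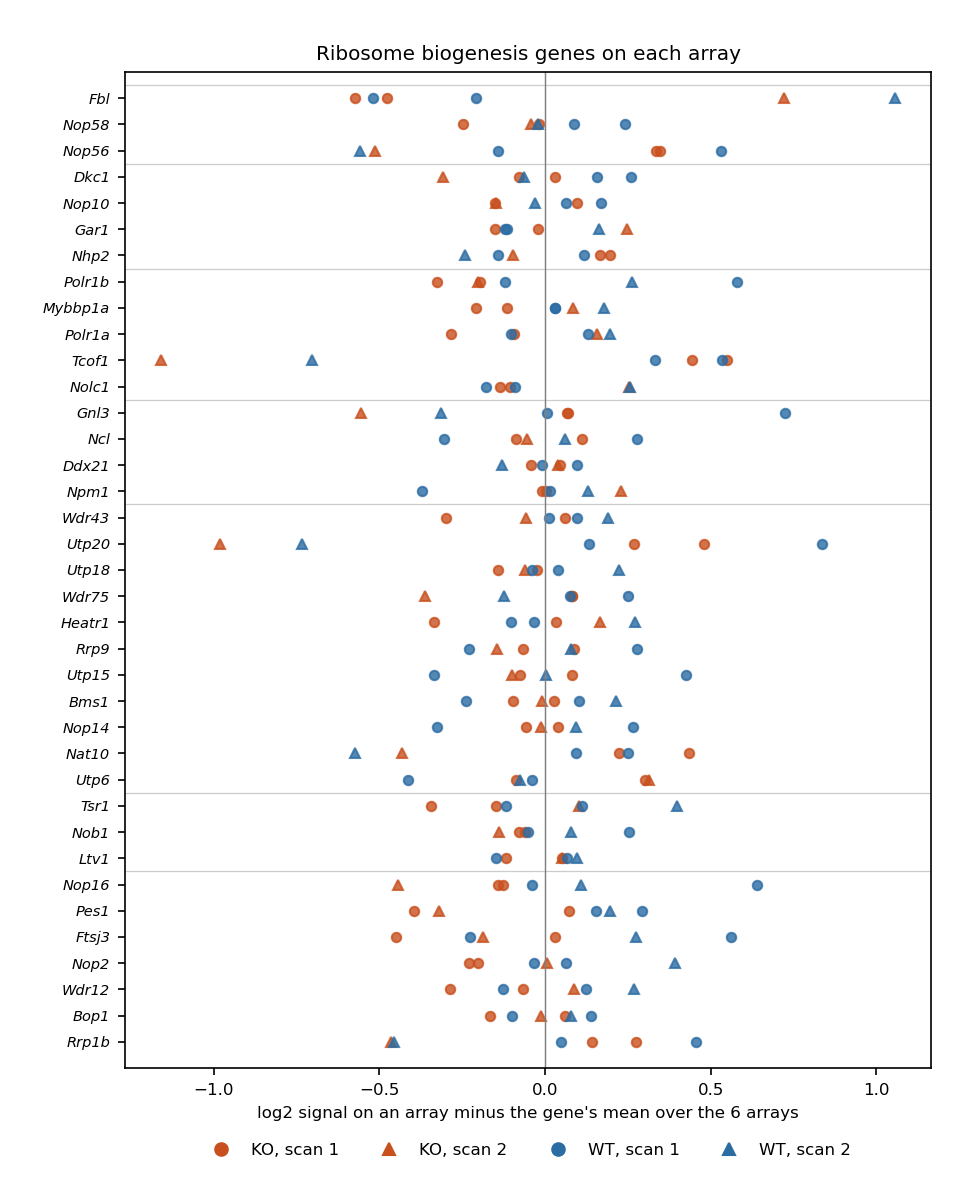
Log2 signal of the 37 measured genes on each of the 6 arrays, centred on the mean of each gene (x axis), with a line per gene (y axis) and grey lines between role groups; colour gives the labelled genotype and the marker shape the scan. KO and WT points are interleaved for most genes, and the 2 triangles of scan 2 lie together and far from the circles for Fbl, Tcof1, Utp20 and Nat10.

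In 4 genes every KO array was below every WT array, namely Pes1, Polr1b, Nop16 and Nob1. That is 10.8% of the 37, against 7.99% of all genes with KO below WT. No gene had every KO array above every WT array, against 10.2% of all genes. In either direction this makes 4 genes of the list, where 18.2% of all genes did not overlap. Counted in that way, genes of the list without overlap numbered 7 with normexp and quantile normalisation (17.3% of all genes), 10 without KO replicate 1 (33.0% of all genes), 4 without KO replicate 2 (24.9%), 8 without KO replicate 3 (27.8%), 6 without WT replicate 1 (28.7%), 12 without WT replicate 2 (33.8%) and 7 without WT replicate 3 (22.3%). There were 10 within scan 1 (38.4%) and 25 against WT replicate 3 alone (62.6%). With the scan as a block in the fit, 2 of the 37 genes were past an unadjusted p of 0.05 on the lower side (7.13% of all genes), and none passed after adjustment, where 0.25% of all genes did (lowest adjusted p among the 37 genes 0.268).

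Promoter sequence was compared next, since MYC and related factors bind the E-box CACGTG, which reads the same on both strands. RefSeq windows of 300 bases, from 250 before to 50 after an annotated start (GRCm38.p6), were found for 32 of the 38 genes, with more than 1 start for 2 of them, and none was used for Rrp12, Npm1, Utp6, Fbl, Tcof1 and Bop1. CACGTG was present in 8 of 32 genes (25%), in 18 of 107 other ribosome biogenesis genes (16.8%) and in 2187 of all 27025 genes with a window (8.09%). The windows also differed in base composition, with a median of 20.5 CpG in the 32 against 7 in all windows and a median GC content of 58.2% against 52.8%, and whether this accounts for the shares was not tested. The 6 sites with 12 bases of the window on both sides are shown, so that their surroundings can be compared. Each line is 30 bases on the strand of the gene, with CACGTG in capitals. They lie at chr6:125131811-125131840 (Nop2, plus strand), chr10:13193092-13193121 (Ltv1, minus strand), chr11:3963965-3963994 (Pes1, plus strand), chr11:74898092-74898121 (Tsr1, plus strand), chr11:93885769-93885798 (Utp18, minus strand) and chr17:71616220-71616249 (Wdr43, plus strand).
Nop2: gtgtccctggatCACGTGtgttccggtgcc
Ltv1: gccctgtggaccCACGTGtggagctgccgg
Pes1: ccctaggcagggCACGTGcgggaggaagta
Tsr1: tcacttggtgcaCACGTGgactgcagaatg
Utp18: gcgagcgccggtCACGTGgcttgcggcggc
Wdr43: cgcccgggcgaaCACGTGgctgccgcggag

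The first base of the motif lay 60 bases before the start in Nop2 and 20 before it in Utp18, and it was base 3 after the start in Pes1, base 18 in Wdr43, base 25 in Tsr1 and base 29 in Ltv1. Utp20 and Mybbp1a were the other two genes with the motif. All 8 genes with CACGTG had a difference below 0, with a median of -0.18 and a range from -0.43 (Pes1) to -0.01 (Ltv1). Over the 37 measured genes 78.4% were below 0, and the share among all genes with the motif was not counted. A link between the motif and the differences was not tested. Of 20 alternative settings, Ltv1 changed sign in 5 (up to 0.14) and Utp20 in 2 (up to 0.30). Utp18 did so in 1, at 0.08 with normexp and 75th percentile scaling. Nop2, Pes1, Tsr1, Wdr43 and Mybbp1a kept their sign, but a dimmer probe of Pes1 gave 0.11. Of the 24 genes without it, 18 had a difference below 0, with a median of -0.09 and a range from -0.48 to 0.18. These are descriptions of letters in a window and not of binding.

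The windows were also searched, on both strands, for the longest run of bases shared by at least 3 of the genes. There were 2 such runs, each of 13 bases. ACTACATTTCCCA was shared by Nop10, Nop16 and Polr1b (3 of 32 genes, 9.38%) and was present in 138 of all 27025 genes (0.511%). CTACAACTCCCAG was shared by Nop14, Nop16 and Wdr12 (also 9.38%) and was present in 79 of all genes (0.292%). Neither was in any of the 107 other pathway genes. The runs were picked from these windows because they recur in them, so the shares of the 32 genes are a description. Promoters with elements of this kind are known to be bound by the transcription factors Zfp143 and Thap11. The 5 upstream sequences are printed because Polr1b and Nop16 gave the lowest differences of the list. Each line is the 160 bases before the start on the strand of the gene (RefSeq, GRCm38.p6), with the shared runs in capitals. They cover chr2:112261766-112261925 (Nop10, plus strand), chr5:34660149-34660308 (Nop14, minus strand), chr13:54590075-54590234 (Nop16, minus strand), chr2:129100836-129100995 (Polr1b, plus strand) and chr1:60097908-60098067 (Wdr12, minus strand).
Nop10: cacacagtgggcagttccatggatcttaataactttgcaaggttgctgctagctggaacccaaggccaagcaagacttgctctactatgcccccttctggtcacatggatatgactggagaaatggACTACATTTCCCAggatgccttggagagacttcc
Nop14: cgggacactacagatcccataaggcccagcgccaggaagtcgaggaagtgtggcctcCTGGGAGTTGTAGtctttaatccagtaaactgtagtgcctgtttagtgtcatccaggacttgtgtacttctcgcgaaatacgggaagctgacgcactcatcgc
Nop16: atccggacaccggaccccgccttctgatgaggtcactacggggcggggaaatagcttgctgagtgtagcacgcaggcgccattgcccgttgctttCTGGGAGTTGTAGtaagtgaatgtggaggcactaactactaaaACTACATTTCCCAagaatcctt
Polr1b: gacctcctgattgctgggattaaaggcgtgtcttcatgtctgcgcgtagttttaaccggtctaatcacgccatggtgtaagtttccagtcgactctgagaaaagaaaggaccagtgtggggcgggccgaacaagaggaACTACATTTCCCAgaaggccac
Wdr12: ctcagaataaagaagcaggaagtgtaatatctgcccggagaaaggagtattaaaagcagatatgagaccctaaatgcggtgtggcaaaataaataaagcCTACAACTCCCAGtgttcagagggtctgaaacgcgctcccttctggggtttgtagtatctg

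ACTACATTTCCCA began 34 bases before the start in Nop10 and 22 before it in both Nop16 and Polr1b. The other run read on the opposite strand in Nop14 and Nop16, where it began 103 and 65 bases before the start, and on the strand of the gene in Wdr12, at 61 bases. The differences of these genes were -0.14 in Nop10, -0.02 in Nop14, -0.47 in Nop16, -0.48 in Polr1b and -0.18 in Wdr12. Whether the runs go with the differences was not tested.

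RNA polymerase I and its regulators had differences below 0 in 4 of 5 genes, with a median of -0.15. Polr1b, a subunit of the catalytic core, read -1.19, -1.06 and -1.07 on the KO arrays and -0.60, -0.98 and -0.28 on the WT arrays. The 3 KO arrays were close together and all lay below the WT arrays, with WT replicate 2 only just above them. The difference was -0.48 ± 0.21 (adjusted p = 0.482), and it was -0.49 within scan 1 and -0.46 within scan 2. Without WT replicate 3 it was -0.31, and against that array alone -0.82. With each other scaling all 5 genes of the group were below 0. Polr1a, the largest subunit of the enzyme, gave a difference of -0.15 ± 0.19 with overlapping groups. Mybbp1a, a nucleolar regulator of the polymerase, gave -0.16 ± 0.16, and Nolc1, which carries snoRNPs and binds the polymerase, gave 0.01 ± 0.20. A dimmer probe of Nolc1 gave -0.46 ± 0.21 (adjusted p = 0.493 in the fit over probes), so its probes differed in sign.

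Tcof1, which encodes treacle, a nucleolar scaffold for ribosomal DNA transcription, gave a difference of -0.11 ± 0.52, with the widest error of the list. Its values were 2.14, 2.25 and 0.54 on the KO arrays and 0.99, 2.23 and 2.03 on the WT arrays. The 2 low values were the 2 arrays of scan 2, one of each genotype.

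Of the 3 box C/D snoRNP proteins, 2 had differences below 0, and all 3 did with quantile normalisation. Nop58, a core protein of these particles, read 2.26, 2.03 and 2.24 on the KO arrays and 2.26, 2.52 and 2.37 on the WT arrays. KO replicate 2 was the lowest and KO replicate 1 overlapped with WT replicate 1, and the difference was -0.21 ± 0.16 (adjusted p = 0.645). It was -0.13 without KO replicate 2, -0.14 without WT replicate 2 and -0.02 within scan 2. Its partner Nop56 gave 0.11 ± 0.35, while a dimmer probe of the same gene gave -0.54 ± 0.29. Fbl, fibrillarin, the methyltransferase of the particle, read 0.23, 0.13 and 1.42 on the KO arrays and 1.76, 0.19 and 0.49 on the WT arrays. Here the arrays of scan 2 were the 2 high ones, and the KO minus WT difference was -0.22 ± 0.49.

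The 4 box H/ACA proteins were evenly divided between differences above and below 0, with a median of -0.04. With quantile normalisation 3 of the 4 were below 0 (median -0.13). So were 3 with normexp, at medians of -0.10 with the 75th percentile and -0.14 with quantile normalisation. Dkc1, dyskerin, the pseudouridine synthase, read -0.57, -0.68 and -0.90 on the KO arrays and -0.66, -0.44 and -0.34 on the WT arrays. The groups overlapped through KO replicate 1 and WT replicate 1 (-0.24 ± 0.18, adjusted p = 0.622), and without KO replicate 3 the difference was -0.14. Its partners in the particle gave -0.14 ± 0.16 for Nop10, 0.05 ± 0.18 for Gar1 and 0.18 ± 0.18 for Nhp2.

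Among the abundant nucleolar proteins the 4 differences straddled 0, with a median of 0.003, and with quantile normalisation all 4 were below 0 (median -0.08). Gnl3, nucleostemin, a GTP-binding protein abundant in proliferating cells, read -0.23, -0.23 and -0.85 on the KO arrays and -0.61, -0.29 and 0.43 on the WT arrays. WT replicate 3 stood above the other 5 arrays, and the groups overlapped (-0.28 ± 0.31, adjusted p = 0.737). Without that array the difference was 0.01, without KO replicate 3 it was -0.07, and without WT replicate 1 it was -0.51. Ncl, nucleolin, a histone chaperone and RNA-binding protein of the nucleolus, gave -0.02 ± 0.20. Ddx21, an RNA helicase that acts in ribosomal RNA transcription and processing, gave 0.03 ± 0.15, the smallest error of the list. Npm1, nucleophosmin, a nucleolar chaperone, gave 0.15 ± 0.19.

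In the small subunit processome 9 of 11 genes had differences below 0, with a median of -0.08, and the groups overlapped in all 11. With normexp and the 75th percentile 4 of the 11 were below 0 and the median was 0.08. Utp6, a component of the UTP-B module, was the gene farthest above 0. It read 5.05, 5.44 and 5.45 on the KO arrays and 5.07, 5.10 and 4.73 on the WT arrays. KO replicates 2 and 3 were above every WT array, and KO replicate 1 lay within the WT range (0.35 ± 0.20, adjusted p = 0.536), and without WT replicate 3 the difference was 0.23. Wdr43, a component of the module that joins transcription to early processing, read 0.57, 0.21 and 0.45 on the KO arrays and 0.70, 0.52 and 0.60 on the WT arrays. KO replicate 2 was the lowest and KO replicate 1 lay inside the WT range (-0.20 ± 0.17, adjusted p = 0.666), with -0.10 left without KO replicate 2.

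Other factors of the same early module gave -0.13 ± 0.20 for Wdr75, -0.09 ± 0.20 for Heatr1 and -0.06 ± 0.22 for Utp15. Utp18, of the UTP-B module, gave -0.15 ± 0.16. Rrp9, a protein of the U3 particle, gave -0.08 ± 0.19, the processome factor Nop14 gave -0.02 ± 0.20 and the GTPase Bms1 gave -0.05 ± 0.18. Nat10, which acetylates ribosomal RNA, gave 0.15 ± 0.30, and Utp20, a large scaffold of the processome, gave -0.16 ± 0.50. Both carried wide errors, and in both the arrays of scan 2 stood apart. Nat10 read 0.92, 1.13 and 0.26 on the KO arrays and 0.12, 0.94 and 0.79 on the WT arrays. Utp20 read -0.56, -0.35 and -1.81 on the KO arrays and -1.57, -0.70 and 0.004 on the WT arrays.

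All 3 measured genes of late small subunit maturation had differences below 0, with a median of -0.19, except that Nob1 was at 0.02 with normexp and the 75th percentile. Tsr1, a GTPase-like assembly factor of the small subunit, read 0.01, -0.19 and 0.26 on the KO arrays and 0.56, 0.04 and 0.27 on the WT arrays. KO replicate 2 was the lowest array and WT replicate 1 the highest, and the groups overlapped (-0.26 ± 0.21, adjusted p = 0.642). The difference was -0.15 without the former and -0.13 without the latter. Nob1, the nuclease that makes the last cut of small subunit ribosomal RNA, read -2.54, -2.52 and -2.60 on the KO arrays and -2.38, -2.51 and -2.20 on the WT arrays. Its groups did not overlap, though KO replicate 2 and WT replicate 2 were nearly equal (-0.19 ± 0.16, adjusted p = 0.668). Without WT replicate 3 the difference was -0.11. Ltv1, a factor released from the small subunit before its last steps, gave -0.01 ± 0.16. Rrp12 read -6.79, -4.89 and -6.77 on the KO arrays and -7.14, -6.82 and -5.94 on the WT arrays, mostly not well above background, and has no difference here.

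The large subunit factors were the group with the lowest median, -0.28, and all 7 had differences below 0, from -0.47 to -0.03, though Rrp1b was at 0.12 with normexp and the 75th percentile. Pes1 forms with Bop1 and Wdr12 a complex that is needed to process large subunit ribosomal RNA. Pes1 read 1.63, 1.17 and 1.24 on the KO arrays and 1.76, 1.85 and 1.72 on the WT arrays. KO replicates 2 and 3 stood clearly below the tight WT group, and KO replicate 1 lay just under it. The means were 1.35 ± 0.25 and 1.78 ± 0.07 (SD, n = 3 each), a difference of -0.43 ± 0.18 with a 95% interval of -0.86 to -0.002 (limma adjusted p = 0.479). It was -0.38 within scan 1 and -0.52 within scan 2. A dimmer Pes1 probe read -4.01, -3.32 and -4.19 on the KO arrays and -4.37, -3.85 and -3.64 on the WT arrays, with overlapping groups and a difference of 0.11 ± 0.29, and the mean of both probes gave -0.16. Wdr12 gave -0.18 ± 0.19 and Bop1 -0.08 ± 0.16, both with overlapping groups.

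Nop16, a nucleolar factor of large subunit assembly, read -1.29, -1.27 and -1.59 on the KO arrays and -1.04, -1.18 and -0.51 on the WT arrays. All KO arrays were below all WT arrays, with WT replicate 3 far above the rest (-0.47 ± 0.22, adjusted p = 0.498), and without that array the difference was -0.27. Ftsj3, a methyltransferase of precursor ribosomal RNA, read -1.47, -0.99 and -1.21 on the KO arrays and -0.75, -1.25 and -0.46 on the WT arrays. WT replicate 2 lay within the KO range (-0.41 ± 0.25, adjusted p = 0.559), and the difference was -0.62 without that array and -0.23 without WT replicate 3. Nop2, which methylates large subunit ribosomal RNA, read 1.40, 1.38 and 1.61 on the KO arrays and 2.00, 1.67 and 1.57 on the WT arrays. KO replicate 3 was above WT replicate 3, so the groups overlapped (-0.28 ± 0.18, adjusted p = 0.576). Without WT replicate 1 the difference was -0.16, and against WT replicate 3 alone it was -0.11. Rrp1b, a nucleolar protein of large subunit processing, gave -0.03 ± 0.29.

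The scan separated some of these genes more than the genotype label did. In a fit with both terms, the scan difference (scan 2 minus scan 1) passed an adjusted p of 0.05 for 4 of the 37 genes (10.8%), against 9.36% of all genes. It was 1.33 for Fbl (adjusted p = 0.007), -1.40 for Tcof1 (0.008), -1.29 for Utp20 (0.019) and -0.75 for Nat10 (0.027). The scan difference was larger in size than the KO minus WT difference for 24 of 37 genes, a count not made over all genes. The median sizes were 0.25 and 0.15, against 0.26 and 0.22 over all genes. The listed genes thus had a scan difference of about the usual size. Scan 2 held only 1 neonate of each label, so scan and animal cannot be told apart. The genotype difference kept one sign across scans in 30 genes, 24 below 0 and 6 above 0 in both. How many of all genes did so was not counted. Within scan 1, 25 of the 37 were below 0 (46.0% of all genes), and within scan 2, 30 were (46.2%). The median difference was -0.08 within scan 1 and -0.12 within scan 2.

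At the level of single probes, 49 of the 50 probes of these genes passed the filter. The scan difference passed for 9 of them (18.4%, against 9.56% of all probes), which were 2 probes each of Npm1 and Tcof1 and 1 each of Fbl, Rrp1b, Nat10, Ddx21 and Utp20. The KO minus WT difference passed for none of the 49, against 0.0736% of all probes. Of the 9 genes with several probes, only Tsr1 and Wdr43 had probes that shared the sign of the genotype difference, and in 7 the probes differed. The same count was not made over all genes with several probes.

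**Figure D3:**
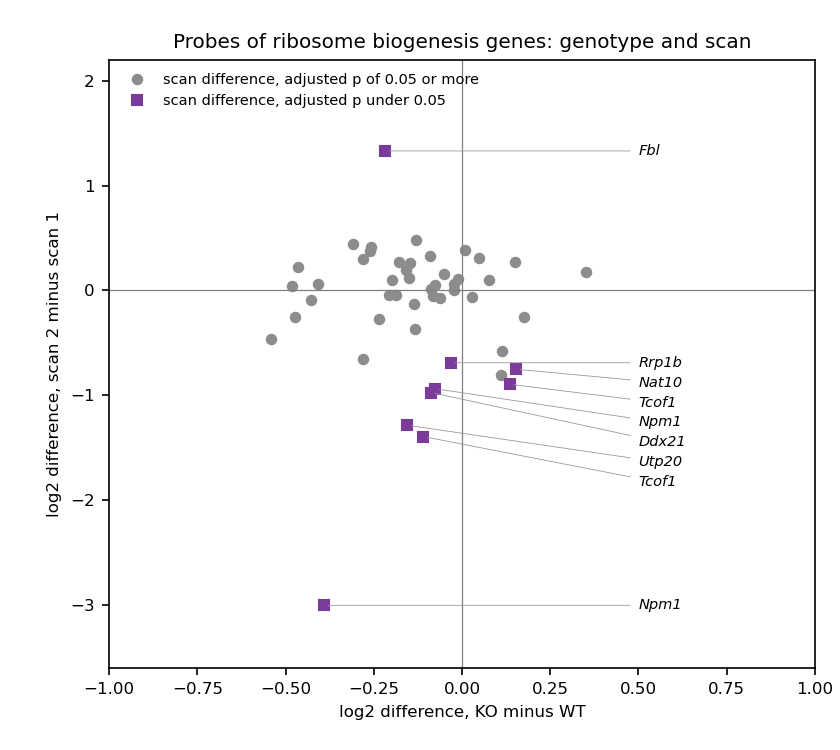
Log2 difference between arrays labelled KO and WT (x axis) against the log2 difference between scan 2 and scan 1 (y axis) for the 49 probes of the listed genes that passed the filter; purple squares mark the 9 probes with an adjusted p under 0.05 for scan. The probes spread much farther along the scan axis, down to -3.01 for a probe of Npm1, than along the genotype axis.

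Npm1 gave the widest contrast between probes of a gene. It is also a gene with near-identical processed pseudogene copies, so signals of its probes may be shared with them. The probe that stood for the gene, A_51_P467410, read 5.37, 5.35 and 5.59 on the KO arrays and 5.49, 5.38 and 4.99 on the WT arrays, with both arrays of scan 2 above the other 4 by a small margin (scan difference 0.27, adjusted p = 0.328). Probe A_55_P2110718 read 4.35, 3.93 and 0.98 on the KO arrays and 1.58, 4.38 and 4.49 on the WT arrays, a scan difference of -3.01 (adjusted p = 0.001). Probe A_55_P1954965 also separated by scan (-0.94, adjusted p = 0.017), with 5.28, 5.07 and 4.38 on the KO arrays and 4.27, 5.25 and 5.44 on the WT arrays. The other two, A_66_P129873 and A_55_P2117243, gave scan differences of 0.01 and 0.44 that did not pass. The scan difference of Npm1 thus depended on the probe read, while the genotype difference lay between -0.39 and 0.15 in all 5 probes and passed in none.

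**Figure D4:**
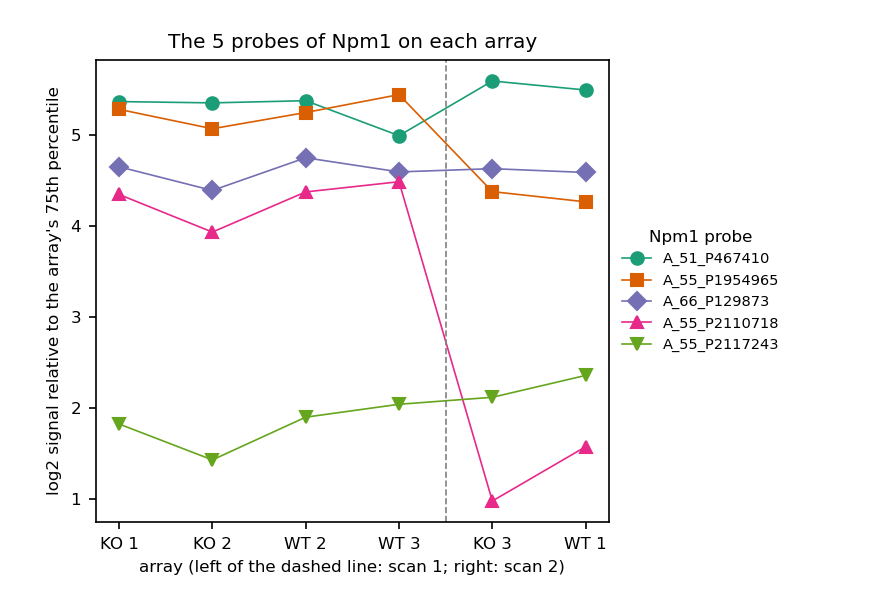
Log2 signal relative to the 75th percentile of each array (y axis) for the 5 probes of Npm1 on the 6 arrays (x axis), ordered by scan with a dashed line between the scans; lines join the values of a probe. A_55_P2110718 drops from between 3.93 and 4.49 on the arrays of scan 1 to 0.98 and 1.58 on those of scan 2, while A_51_P467410 stays between 4.99 and 5.59.

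Other genes of the pathway, 125 by list and 122 measured, showed smaller differences on the median over all 6 arrays. In 74 of them (60.7%) the KO mean was below the WT mean, with a median of -0.05, and none passed after adjustment. The order depended on single arrays. Without WT replicate 1 their median was -0.12, against -0.095 for the 37 genes, and without WT replicate 3 it was -0.053, against -0.043. At an unadjusted p of 0.05, 8 of the 122 were past the threshold below 0 (4.17% of all genes) and 1 above it (6.21% of all genes). The groups did not overlap in 11 genes with KO lower (7.99% of all genes) and in 4 with KO higher (10.2%). By branch, the median was -0.05 over 12 further genes of RNA polymerase I transcription (7 below 0, but 0.08 with normexp and the 75th percentile), -0.08 over 8 of snoRNPs and their assembly (4 below 0), -0.04 over 39 of the small subunit (23 below 0), -0.06 over 50 of the large subunit (32 below 0) and -0.18 over 13 of the nuclear RNA exosome (8 below 0). The exosome median was -0.030 with normexp and the 75th percentile (7 of 13 below 0), -0.070 within scan 1 and -0.045 within scan 2.

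The gene with the smallest p among them was Polr1h, another subunit of RNA polymerase I, which read 0.001, -0.42 and -0.08 on the KO arrays and 0.47, 0.28 and 0.95 on the WT arrays. Every KO array was below every WT array (-0.73 ± 0.23, adjusted p = 0.404). Noc4l, a small subunit factor, gave -0.64 ± 0.22, Bysl, bystin, of late small subunit assembly, gave -0.42 ± 0.17, and Wdr36 of the processome gave -0.45 ± 0.18. Exosc4, a core subunit of the exosome, which degrades and trims RNA, gave -0.40 ± 0.16. Nol11, a processome factor, went the other way at 0.42 ± 0.17, with 1.54, 1.65 and 1.52 on the KO arrays and 1.01, 1.35 and 1.09 on the WT arrays. None of these passed (adjusted p from 0.404 to 0.470).

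In the MYC network, 11 of 12 genes were measured, 7 had differences below 0, the median was -0.05 and none passed. Myc read -0.19, -0.63 and -0.59 on the KO arrays and 0.01, -0.07 and 0.49 on the WT arrays. Its groups did not overlap (-0.62 ± 0.22, adjusted p = 0.439). Mycl, a family member, lay on the other side, with -1.50, -1.03 and -1.39 on the KO arrays and -1.89, -2.27 and -1.76 on the WT arrays (0.67 ± 0.21, adjusted p = 0.409). Mycn, the family member of nephron progenitors, gave -0.19 ± 0.20, and Mlx, a partner of the related glucose-sensing factors, gave -0.52 ± 0.17 (adjusted p = 0.415). Max, the shared partner of the MYC proteins, gave 0.06 ± 0.20.

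Ribosomal proteins are the building blocks that these factors assemble, and replication and mitosis genes mark dividing cells. Of 79 genes of cytosolic ribosomal proteins, 56 had differences above 0, with a median of 0.13 and none passing, but with quantile normalisation 57 of the 79 were below 0 and the median was -0.09. Examples are Rpl23 (0.49 ± 0.21) and Rps15 (-0.42 ± 0.16). All 30 genes of DNA replication and mitosis had differences below 0, with a median of -0.32 (29 of 30 with normexp and the 75th percentile). None passed, 6 were past an unadjusted p of 0.05 on the lower side (4.17% of all genes), and in 10 every KO array was below every WT array (7.99% of all genes). The difference between these lists was not tested.

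**Figure D5:**
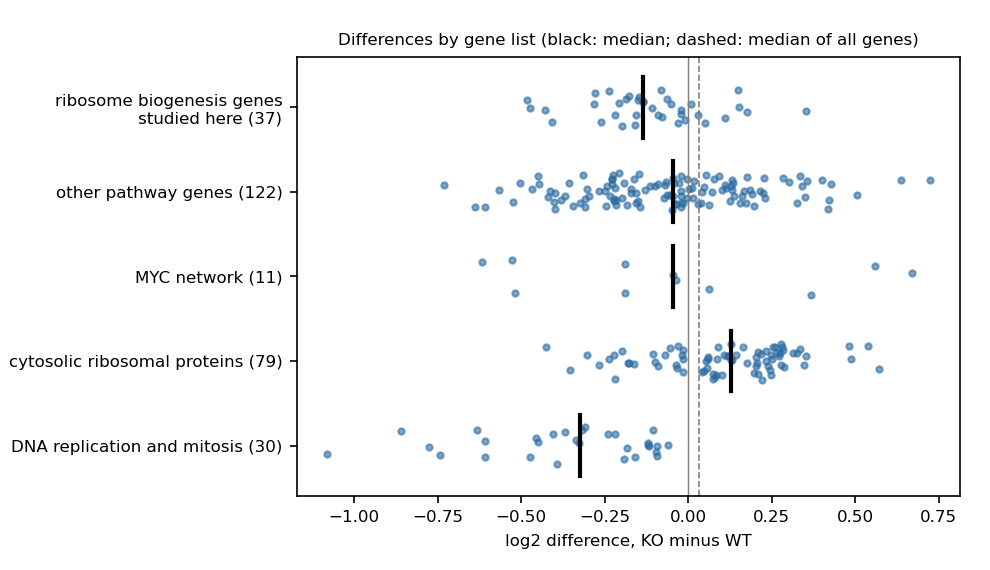
Log2 difference between arrays labelled KO and WT (x axis) for each measured gene of 5 lists (y axis, number of genes in brackets); black bars are list medians and the dashed line is the median of all genes tested. Medians are -0.13 for the ribosome biogenesis genes described here, -0.05 for other pathway genes, -0.05 for the MYC network, 0.13 for ribosomal proteins (-0.09 with quantile normalisation) and -0.32 for replication and mitosis.

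Differences below 0 were also frequent among markers of some kidney cells, given here with the log2 of their summed linear signal. Of the 6 nephron progenitor markers 5 had differences below 0, with a median of -0.63, and their summed level ran from 3.50 to 4.13 on the KO arrays and from 3.68 to 4.20 on the WT arrays. Of 8 macrophage markers 7 were measured (all but Cd68), 5 had differences below 0, with a median of -0.64 (-0.17 with normexp and the 75th percentile), and the sums ran from 2.49 to 2.55 on the KO arrays and from 2.62 to 2.83 on the WT arrays. Podocyte markers (5 of 5 below 0, median -0.34), proximal tubule markers (5 of 6, -0.40), stromal and mural markers (5 of 6, -0.43) and endothelial markers (4 of 5, -0.31) were also mostly below 0. Loop and distal tubule markers were evenly divided (2 of 4, -0.04). Collecting duct markers (2 of 5 below 0, median 0.34) and erythroid markers (1 of 5 measured below 0, 0.05) lay mostly above it. All 3 measured lymphocyte markers were below 0 (median -0.12), and 2 of 3 adrenal markers were (-0.08), with the other at 1.78. With normexp and the 75th percentile 0 of 3 were below 0 in both lists (medians 0.28 and 0.27). The adrenal sums ran from -1.91 to -1.23 on the KO arrays and from -2.45 to -2.03 on the WT arrays. Sums for replication and mitosis ran from 6.45 to 6.97 on the KO arrays and from 6.93 to 7.19 on the WT arrays.

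KO replicate 2 was the lowest array for the nephron progenitor, proximal tubule, podocyte, stromal, endothelial and replication sums. The gap was wide for podocytes, at 2.40 against 3.66 to 4.26 on the WT arrays, and narrow for stroma, at 7.09 against 7.10 on KO replicate 3. It was also the array with the most signal in its brightest 1% of spots, 39.1% where the next array had 31.9%. Without it 30 of the 37 ribosome biogenesis genes were below 0 (49.7% of all genes), with a median of -0.12. The part of these cell types in the differences of the ribosome biogenesis genes was not tested.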

How the data were processed

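Each neonate gave 1 single-colour Agilent array of Cy3-labelled kidney cRNA, per the labels. The deposited intensity of a spot is the processed signal of Agilent Feature Extraction, linear and background-subtracted but not scaled between arrays. The file headers give its version as 11.0.1.1, whereas 9.1 stands in the submitters' processing notes, and which applies is not known. The array design names build mm9, and the RefSeq table is GRCm38.p6, so the table gave names and its own promoter windows only.

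Of 44397 spots per array, 1377 controls and the outlier spots were left out. Log2 signals were centred on the 75th percentile of each array and spots of a probe averaged. Accessions named 27234 of 39429 probes (69.1%). Probes were kept where every array of a group (KO, WT or both) was well above background, and a gene was read from the brightest of them. Groups were compared with limma 3.58.1 in R 4.3.3, tested on simulated data (two-sided, Benjamini-Hochberg, threshold 0.05). With 3 against 3 arrays the smallest exact permutation p is 0.1. The number of arrays limits the precision.

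The genes and the lists were chosen with earlier results of these data known. Values on every array were given for the 10 genes with the smallest p and the first of each role group; those of Nob1, Fbl, Tcof1, Utp20, Nat10, Rrp12, the dimmer Pes1 probe and Npm1, and the search for shared runs, were added after values or sequences were seen. Outside the list, the 6 pathway genes with the smallest p, the MYC network and up to 2 genes each of the ribosomal protein and replication lists could be named. Polr1h is Znrd1 in the table. Alternatives were other scalings, background corrections, filters, probe rules and variance models, array weights, replicate and scan blocks, single scans and left-out arrays. Deviations of same-numbered arrays had correlations of -0.40, 0.48 and -0.60, against 0.89 for KO replicate 3 with WT replicate 1, both of scan 2. Arrays numbered 1 and those numbered 3 were split between the scans. These correlations therefore cannot show whether the numbers paired the samples.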

Additional observations from a re-analysis of the deposited data

How the results depend on the processing

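The count of all genes past an adjusted p of 0.05, 17 here, was 27 with normexp correction and 75th percentile scaling, 45 with an intensity trend and robust variance, 36 with array weights, 53 with the scan block, 1 with the filter on all 6 arrays and 1 when the probes of each gene were averaged. It was 0 without a filter (2050 at an unadjusted p of 0.05, limma), with normexp and quantile normalisation (2205), and against WT replicate 3 alone (2020). With the replicate number as a block it was 0 (1611 unadjusted). No listed gene passed without this block, so it could not remove a call among them. At an unadjusted p of 0.05, 1 listed gene was past the threshold without the block and 0 with it. Over all genes, leaving out each array gave 0 to 28. Among the 37 genes none passed under any of these, nor with any array left out (0 to 0), and at an unadjusted p of 0.05 the count was 1, with 0 to 4 under the alternatives (4 with normexp and quantile normalisation, 3 without WT replicate 2).

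Their median difference of -0.13 became -0.18 with array median scaling, -0.077 with normexp and the 75th percentile, -0.083 within scan 1, -0.19 against WT replicate 3 alone, and -0.16 to -0.043 with each array left out. Normexp and the 75th percentile moved the median of all genes from 0.03 to 0.14, and the listed genes then lay -0.21 from it. The number of genes below 0, 29, ran from 22 to 30 with arrays left out, where 45.2% to 49.7% of all genes were below 0. Genes with groups that did not overlap, 4 here, numbered 7 with normexp and quantile normalisation (17.3% of all genes, against 18.2% here), 10 within scan 1 (38.4% of all genes), 25 against WT replicate 3 alone (62.6%) and 4 to 12 with arrays left out, where 22.3% to 33.8% of all genes did not overlap. The median of the other pathway genes, -0.05, was -0.11 with quantile normalisation, -0.17 against WT replicate 3 alone and -0.12 to -0.031 with arrays left out. Over the 20 alternatives 14 of the 37 genes kept their sign and 23 changed it at least once, as Fbl, Polr1a, Wdr12 and Ltv1 did against WT replicate 3 alone. Sign changes were not counted over all genes. Among the 10 genes with the smallest p and Gnl3, which led its role group, Gnl3 was the one that changed sign. Gnl3, at -0.28 here, ran from -0.51 to 0.014 with arrays left out and was above 0 without WT replicate 3 (the cause was not tested). Within scan 2, with 1 array per label, no test was made.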
